A study of Mus musculus with 4 samples.

Results

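The 9 genes described here, Lsamp, Npas3, Ctnna2, Csmd3, Csmd1, Cdh13, Cadm2, Sdk1 and Nrg3, are long genes of the nervous system in which DNA breaks recur in mouse neural progenitors. They were chosen by name, and their windows by position: every 100 kb window whose midpoint lay in the GRCm38 gene interval or within 300 kb of either edge. This gave 663 of the 109033 windows of the replication profile, 447 of them inside a gene, and all 663 had a value in every library. The genes are 0.824 Mb (Npas3) to 2.20 Mb (Lsamp) long, and of 20665 autosomal protein-coding RefSeq genes only 93 reach 0.8 Mb.

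Fork direction was measured in mouse embryonic stem cells labelled 129S6/SvEvTac by TrAEL-seq, a method that sequences DNA at free 3′ ends. The wild type (WT) had 2 libraries, and 2 more came from cells whose genotype label is SNF2KO, called KO here. Their library names give the deleted gene as Snf2h, the ATPase of ISWI chromatin remodelling complexes. All cells grew in serum with LIF on gelatin, without feeder cells named in the labels, and no other treatment or allele is labelled. The labels say neither whether the libraries of a genotype came from separate cultures nor whether the KO cells are 1 clone, so the p-values measure only the spread between these libraries, which may be technical. These are stem cells and not neural progenitors, and expression of the 9 genes and of Snf2h was not analysed here.

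Break clusters in neural progenitors are known from long genes that are transcribed there and mostly copied late in S phase, and replication stress makes the breaks more frequent. Many of these genes encode adhesion molecules or proteins of the synapse. A fork that starts far outside such a gene has a long way to travel, and where forks from either side meet, replication terminates.

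The deposited value, called polarity here, is the strand imbalance of the captured ends in percentage points, between -50 and 50. The headers and labels do not say which strand is positive. If positive polarity marks forks that move towards higher coordinates, a rise along the coordinate marks diverging forks (initiation), a fall marks converging forks (termination), and a value near 0 marks both directions in equal share. A rise or a fall reads the same from either strand. Only polarity along the gene, whose sign was turned for genes on the minus strand, needs the strand, and positive values then mark forks that run with transcription. The strand came from RefSeq promoter entries, which held 6 of the 9 genes. Lsamp, Npas3 and Sdk1 lie on the plus strand and Ctnna2, Cadm2 and Nrg3 on the minus strand. Csmd3, Csmd1 and Cdh13 are described by coordinate.

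The libraries differed in amplitude over all autosomes. The SD of polarity over 23672 autosomal windows that do not overlap was 14.6 and 12.8 points in WT replicates 1 and 2 and 19.5 and 14.5 points in KO replicates 1 and 2. Values in KO replicate 1 were therefore often farther from 0, and its part in the differences below was not tested beyond the values given. The table has no read counts, so depth is unknown.

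**Figure D1:**
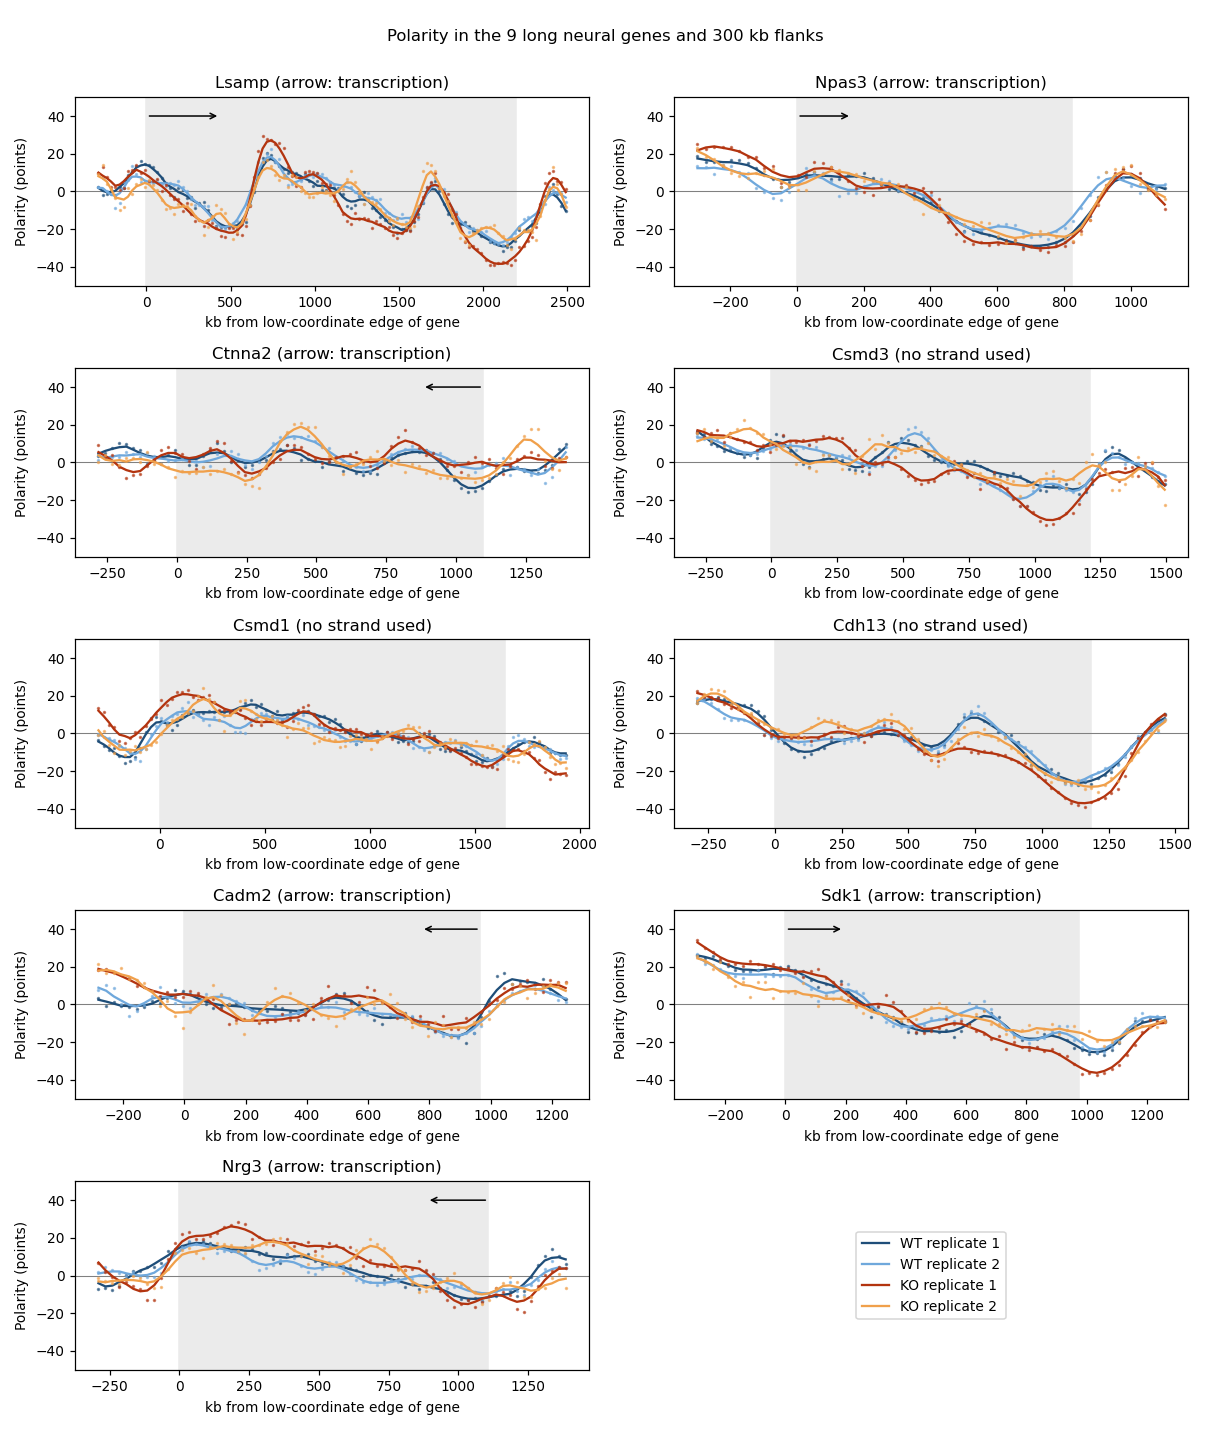
Polarity (points, y axis) against distance from the low-coordinate edge of each gene (kb, x axis) in the 4 libraries. Points are windows, lines are running means of 5 windows, grey marks the gene, and arrows point along transcription. Polarity ends lower than it begins in every library in 8 genes, all but Ctnna2, and Lsamp shows 2 rises inside the gene in every library.

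Polarity fell from the low-coordinate edge to the high-coordinate edge in nearly all of these genes. Each gene was divided into 4 sections of nearly equal window number. The end-to-end change is the mean of the last section minus that of the first along the coordinate. For this measure the larger end section, where sizes differed, was shortened to the size of the smaller. The end-to-end change was negative in WT in all 9 genes. It ranged from -31.1 points in Npas3 to -2.93 points in Ctnna2, and was negative in all 4 libraries in 8 of 9 genes. The exception was Ctnna2, where WT replicate 2 and KO replicate 1 lay just above 0, at 0.421 and 0.475 points. Such falls are common in long genes. Of 217 other autosomal protein-coding genes with at least 20 windows, 80.2% fell in all 4 libraries, and their WT median of -16.7 points was close to that of the 9 genes, -18.0 points.

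**Figure D2:**
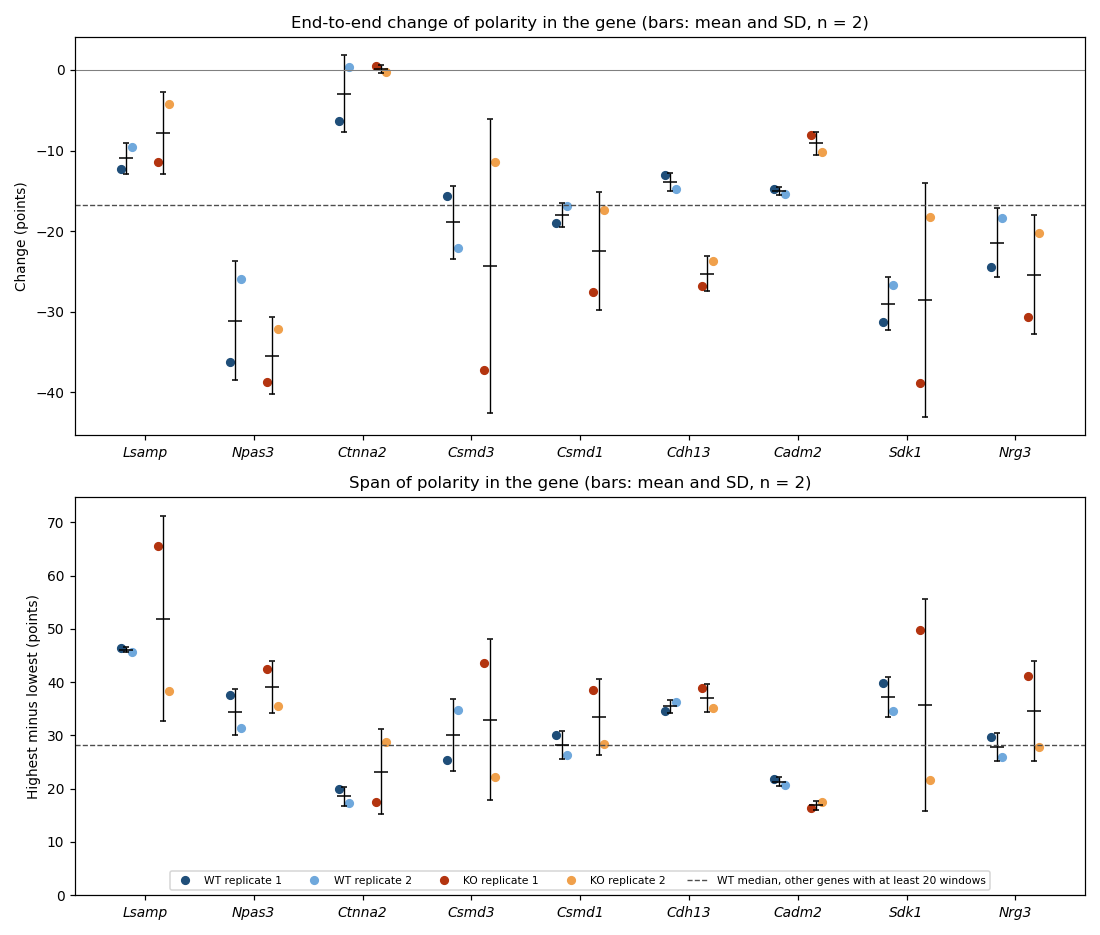
End-to-end change (upper panel) and span (lower panel) of polarity, in points, for each gene and library. Black bars show the mean and SD of a genotype (n = 2), and the dashed line is the WT median of 217 other genes with at least 20 windows. The fall is deepest in Npas3 and Sdk1, Ctnna2 lies near 0, and Lsamp has the widest span in WT.

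Steep changes were called as common segments, which are stretches between a local extremum and the next on the running mean of all 4 libraries, with a change of at least 1 SD. Inside the 9 genes lay the midpoints of only 3 rises, 2 in Lsamp and 1 at the low-coordinate edge of Csmd1. That is 0.268 rises per Mb, against 1.04 per Mb over the autosomes. Genes at least as long as Npas3 held 0.392 rises per Mb, and 56.7% of these 90 genes, the 9 among them, held none, as did 7 of the 9. The genes held 8 falls, or 0.714 per Mb, against 1.03 per Mb over the autosomes and 0.841 per Mb in the 90 long genes. Their falls were longer and more gradual at the median than those of the autosomes, with a median change of -27.0 points against -26.4 points over 2444 autosomal falls. The median fall in the 9 genes covered 512.5 kb at -5.14 points per 100 kb, compared with 325 kb at -8.52 points per 100 kb over the autosomes. Length and slope were not compared with falls in the 90 long genes, so they may be shared by long genes at large.

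Beside the genes lay 6 further rises. Within 300 kb outside the gene, 6 of 9 genes had a common rise, and 62.2% of the 90 long genes had one. For Lsamp, Npas3, Sdk1 and Nrg3 the rise lay past the transcription end, with midpoints 2266, 852, 1171 and 1136 kb from the start. For Cadm2 alone of the genes with a strand, it lay at the transcription start. For Cdh13 it lay past the high-coordinate edge.

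**Figure D3:**
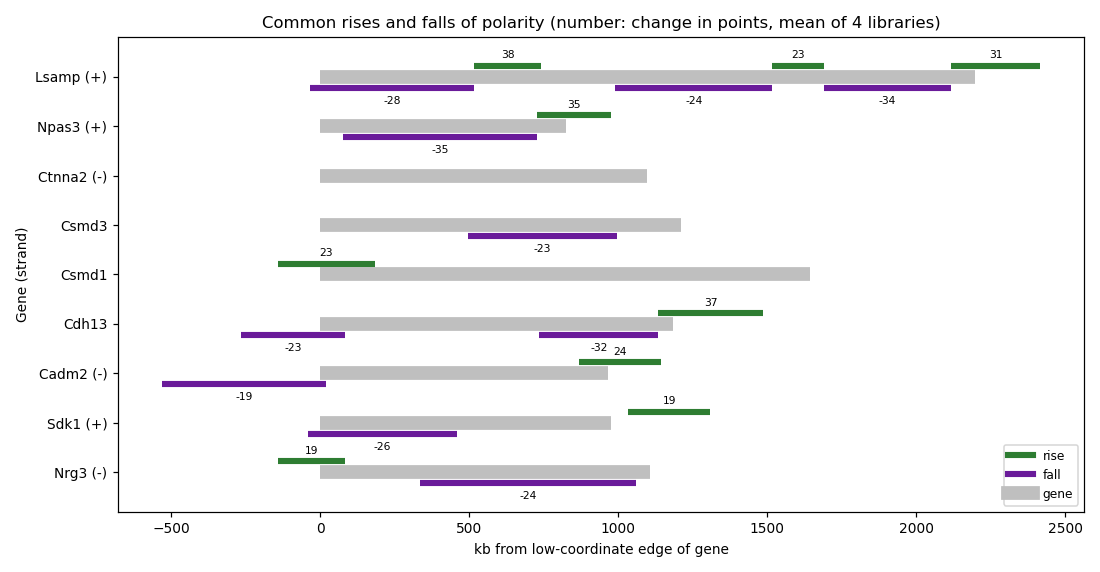
Common rises (green) and falls (purple) of polarity along each gene (grey bar), in kb from its low-coordinate edge, with the change in points over the mean of the 4 libraries beside each. Most rises lie at or beyond a gene edge, Lsamp holds 2 inside, and Ctnna2 has neither a rise nor a fall.

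Lsamp encodes an IgLON protein of the neuronal surface, known for its part in the wiring of the limbic system. It is the longest of the 9 genes, at chr16:39984254-42181679, and the only one with common rises deep inside the body. The first rise, at 40500000 to 40725000, had its midpoint 628 kb from the transcription start and overlaps only the gene model Gm52230 besides Lsamp. Polarity rose there by 35.7 and 35.7 points in WT, against 49.0 and 30.5 points in KO replicates 1 and 2. The KO libraries lay on either side of the WT libraries, with means of 39.8 points in KO and 35.7 points in WT (n = 2 each; exact permutation p = 1).

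The second rise in Lsamp, at 41500000 to 41675000, was centred 1603 kb from the start and overlaps no other RefSeq gene. Its height was 21.6 and 16.5 points in WT, against 25.4 and 28.1 points in KO. Both KO libraries were above both WT libraries, at 26.7 ± 1.91 against 19.1 ± 3.57 points (SD, n = 2 each), and the exact permutation p of 0.33 is the smallest that 2 against 2 libraries allow. Before, between and after these rises lay 3 falls of 425 to 550 kb. The first, centred 241 kb from the start, was -32.2 and -24.9 points in WT, against -32.3 and -22.0 points in KO, with KO values on either side of WT. The last fall, centred 1903 kb from the start, was -30.3 and -29.0 points in WT, against -41.4 and -35.0 points in KO. Here both KO libraries fell further than both WT libraries (exact permutation p = 0.33). Beyond the gene end, a rise at 42100000 to 42400000 overlaps Gap43, which encodes a growth cone protein. It was 27.6 and 26.0 points in WT, against 45.5 and 26.9 points in KO, so KO replicate 2 lay between the WT libraries.

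RefSeq lists 2 promoters for Lsamp. That of the outer start lies in no common rise, whereas the inner one lies in the second rise, 54.7 kb from its midpoint. Cadm2 is the gene whose start lies in a rise. These 3 promoters (300 bases from 250 before to 50 after the start, RefSeq, GRCm38.p6) are printed to set both kinds of start side by side, with each CG pair in capitals. A window of 100 kb cannot resolve a promoter.
Lsamp outer start, chr16:39984114-39984413, plus strand: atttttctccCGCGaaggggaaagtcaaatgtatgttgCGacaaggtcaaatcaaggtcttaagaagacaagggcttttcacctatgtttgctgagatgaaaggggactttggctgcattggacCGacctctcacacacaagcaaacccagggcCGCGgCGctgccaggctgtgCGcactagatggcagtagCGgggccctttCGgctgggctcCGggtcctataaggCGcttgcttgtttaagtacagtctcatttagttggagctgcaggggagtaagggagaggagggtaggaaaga
Lsamp inner start, chr16:41532576-41532875, plus strand: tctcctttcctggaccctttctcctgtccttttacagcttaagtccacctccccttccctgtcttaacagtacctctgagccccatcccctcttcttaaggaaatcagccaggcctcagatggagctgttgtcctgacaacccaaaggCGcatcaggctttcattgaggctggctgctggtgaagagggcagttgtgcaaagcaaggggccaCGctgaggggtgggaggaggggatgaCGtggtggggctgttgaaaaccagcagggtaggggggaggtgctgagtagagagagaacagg
Cadm2 start, chr16:67620859-67621158, minus strand: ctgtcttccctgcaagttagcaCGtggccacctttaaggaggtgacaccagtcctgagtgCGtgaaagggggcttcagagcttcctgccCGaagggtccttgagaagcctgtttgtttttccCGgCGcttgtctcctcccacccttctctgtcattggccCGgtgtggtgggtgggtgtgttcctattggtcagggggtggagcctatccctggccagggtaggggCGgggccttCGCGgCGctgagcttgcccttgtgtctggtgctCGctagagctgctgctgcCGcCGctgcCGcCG
They hold 12, 3 and 15 CG pairs. Of 32851 RefSeq promoters of this length, 39.6%, 76.7% and 34.6% hold at least as many. The other member starts outside a common rise hold more, with 54 in Sdk1, 38 in Ctnna2, 36 in Nrg3 and 18 in Npas3. The match is a description of the letters only.

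Cadm2, which encodes a synaptic cell adhesion molecule of the immunoglobulin family, lies at chr16:66655416-67620917 on the minus strand. The rise at 67525000 to 67800000 spans its start, with the midpoint 41.6 kb upstream. It measured 28.2 and 24.6 points in WT, against 21.1 and 20.3 points in KO. Both KO libraries were lower, at 20.7 ± 0.568 against 26.4 ± 2.51 points (SD, n = 2 each; exact permutation p = 0.33). Along the gene, mean polarity was 4.45 and 5.12 points in WT, against 3.70 and 3.98 points in KO. Cadm2 was the only one of the 6 genes with a strand in which this mean was positive in every library. The section next to the start carried most of it, at 13.1 ± 0.210 points in WT, against 10.7 ± 1.54 points in KO (SD, n = 2 each), and the means of the other sections lay between -1.10 and 3.64 points in both genotypes. Its span was 21.8 and 20.7 points in WT, against 16.3 and 17.4 points in KO, so both KO libraries were flatter. Past the transcription end lay a fall, at 66125000 to 66675000, of -15.1 and -13.0 points in WT, against -21.6 and -24.9 points in KO, deeper in both KO libraries (exact permutation p = 0.33).

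Sdk1, a sidekick adhesion molecule known from the matching of synaptic partners in the retina, lies at chr5:141241497-142215586 on the plus strand. Inside the gene polarity was highest at the transcription start, where its running mean reached 18.5 and 15.7 points in WT, and in KO 18.1 points (replicate 1) and 7.15 points (replicate 2). Upstream it was higher still, at 26.3 and 26.6 points in WT, against 34.3 and 25.6 points in KO, in chr5:140900001-141000000. The common fall at 141200000 to 141700000 spans the start and was centred 209 kb inside the gene. It measured -33.1 and -25.9 points in WT, against -33.1 and -12.1 points in KO, with KO replicate 1 inside the WT range and KO replicate 2 shallower than both WT libraries. The end-to-end change was -31.3 and -26.7 points in WT, against -38.8 and -18.3 points in KO, with the KO libraries on either side of WT. No common rise lay in the gene. The next one, centred 1171 kb from the start, overlaps Foxk1, Ap5z1 and Radil among others.

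Cdh13 encodes T-cadherin, which is held in the membrane by a lipid anchor, and lies at chr8:118140017-119324929. In WT, polarity rose inside the gene from -10.6 and -9.41 points in chr8:118700001-118800000 to 8.95 and 10.5 points in chr8:118800001-118900000. In KO it went from -14.9 and -17.3 points to -7.20 and 3.25 points between these windows. In WT the running mean inside the gene was highest 760 kb from the low edge, at 8.32 and 10.6 points. A fall of -34.6 and -35.6 points followed in WT at 118875000 to 119275000, centred 935 kb from the low edge. In KO the highest values inside the gene, 1.91 and 7.20 points, lay nearer the low edge, at 435 and 410 kb. The fall over the same fixed stretch was -28.5 and -27.4 points in KO. Over that stretch both KO libraries fell less, at -27.9 ± 0.760 against -35.1 ± 0.691 points (SD, n = 2 each; exact permutation p = 0.33). The whole gene did not show this. Its span, the highest minus the lowest running mean, was 34.6 and 36.3 points in WT, against 38.9 and 35.2 points in KO. The groups overlapped. Mean polarity in the third section of the gene, named after its values were seen, was 2.35 and 2.57 points in WT, against -10.1 and -4.29 points in KO. The end-to-end change was -13.1 and -14.7 points in WT, against -26.7 and -23.7 points in KO, which differs by -11.4 points (SE 5.70, limma adjusted p = 0.488). Past the high edge a rise of 37.5 points in the mean of all libraries covers Hsbp1, Mlycd, Osgin1, Necab2 and other short genes.

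Ctnna2 encodes alpha-N-catenin, which ties cadherins to actin in neurons, and lies at chr6:76881637-77979815 on the minus strand. Its WT span, the highest minus the lowest running mean in the gene, was the narrowest of the 9 genes at 18.5 ± 1.86 points (SD, n = 2). No common rise or fall had its midpoint in the gene or its flanks, and the SD of polarity over its 68 windows was 6.27 and 5.56 points in WT, against 5.47 and 8.29 points in KO. As a share of each library's autosomal SD these are 0.429, 0.434, 0.281 and 0.571. The libraries also resembled each other least here. Pearson's r over the overlapping windows, which are not independent, was 0.594 for the WT pair and 0.251 for the KO pair, whereas in Sdk1 it was 0.969 and 0.917. Mean polarity along the gene was 0.170 and -3.41 points in WT, against -2.60 and 0.842 points in KO, with the groups overlapping.

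Csmd1 and Csmd3 encode very large membrane proteins built of CUB and sushi domains. Csmd1 lies at chr8:15892538-17535385. Its rise, at 15750000 to 16075000, had its midpoint 20.0 kb inside the low edge and measured 23.8 and 19.9 points in WT, against 22.4 and 25.7 points in KO, with the groups overlapping. No stretch of the gene was called as a common fall. The means of the 4 sections, by coordinate, were 8.67, 8.77, -2.11 and -9.26 points in WT, while in KO they were 14.0, 4.86, -1.25 and -8.40 points. Csmd3, at chr15:47580638-48792558, had 1 common fall, at 48075000 to 48575000 and centred 744 kb from the low edge, of -21.8 and -27.9 points in WT, against -24.5 and -18.0 points in KO. Its lowest running mean was -14.4 and -19.3 points in WT, while KO replicate 1 reached -30.6 and replicate 2 -12.5 points. The end-to-end change of KO replicate 1, -37.2 points, was beyond both WT libraries (-15.7 and -22.1 points), and that of KO replicate 2, -11.4 points, was on the other side.

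Npas3, a transcription factor of the bHLH-PAS family, lies at chr12:53248026-54072173 on the plus strand. Its mean end-to-end change was the deepest of the 9 genes in either genotype, although Sdk1 was slightly deeper in WT replicate 2 and KO replicate 1. The values were -36.3 and -25.9 points in WT, against -38.8 and -32.1 points in KO. A single fall of 650 kb ran from 53325000 to 53975000, centred 402 kb from the start, and measured -37.1 and -30.1 points in WT, against -42.5 and -31.8 points in KO. KO replicate 2 lay between the WT libraries. The running mean passed from above to below 0 exactly 1 time in every library. Right after the fall, a rise at 53975000 to 54225000 spans the transcription end and overlaps Egln3, which encodes an oxygen-sensing hydroxylase. The end step, which is mean polarity over the 300 kb downstream minus that over the last 300 kb of the gene, was 24.8 and 22.3 points in WT, against 25.9 and 20.3 points in KO. It was higher in WT than in 93.2% of 176 long genes with a strand.

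Nrg3 encodes an EGF-family ligand of the receptor ErbB4 and lies at chr14:38365102-39473235 on the minus strand. As in Npas3, the rise lay at the transcription end and the running mean fell through 0 a single time in every library. The rise, at 38225000 to 38450000, was 14.4 and 16.0 points in WT, against 29.6 and 16.5 points in KO. The fall in the gene, centred 411 kb from the start, was -22.5 and -15.0 points in WT, against -32.4 and -27.3 points in KO. Over this fixed stretch both KO libraries fell further (exact permutation p = 0.33). The highest running mean lay 1048 kb from the start in both WT libraries, against 923 and 773 kb in KO. The span of the whole gene was 29.7 and 25.9 points in WT, against 41.2 and 27.9 points in KO. The end-to-end change was -24.5 and -18.4 points in WT, against -30.6 and -20.2 points in KO. In both measures KO replicate 2 lay between the WT libraries. Mean polarity along the gene was -4.11 and -3.49 points in WT, against -10.3 and -7.77 points in KO. This was the largest difference in that mean among the 6 genes with a strand, -5.23 points (SE 2.28), and it did not pass in limma (adjusted p = 0.307). The sections before and after the middle of the gene differed most, at 0.297 and -7.33 points in WT, against -9.03 and -15.1 points in KO. The share of windows above 0 along the gene was 36.4% and 38.6% in WT, against 15.9% and 22.7% in KO. Without KO replicate 2 the difference was -6.49 points and passed, as did 300 of 770 genes, with the lone KO library assumed to vary like WT. Without KO replicate 1 it was -3.97 points and did not pass.

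Strand summaries divided the 6 genes with a strand. Mean polarity along the gene was negative in all 4 libraries in Lsamp, Npas3, Sdk1 and Nrg3, that is 66.7% of them, and positive in Cadm2. Of 170 other long genes with a strand, 48.2% were negative in all 4 libraries. The start step, which is mean polarity over the first 300 kb of the gene minus that over the 300 kb upstream, taken along the gene, was 20.8 and 15.0 points in WT for Cadm2. In Sdk1 it was -11.1 and -9.17 points. In Lsamp it was -2.46 and -0.976 points in WT, against -10.6 and -7.19 points in KO, KO minus WT being -7.20 points (SE 3.00, limma adjusted p = 0.312) and -3.97 points with 200 kb on each side. The end step of Cadm2 was -1.87 and -3.44 points in WT, against -14.5 and -9.99 points in KO, KO minus WT being -9.57 points (SE 3.33, limma adjusted p = 0.282). In both cases the KO libraries lay below both WT libraries.

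Across all genes, no genotype difference in a gene-level measure passed in limma at an adjusted p of 0.05. This held for mean polarity along the gene (0 of 6 members; background 0% of 770 genes), the end-to-end change (0 of 9; 0% of 1030), the start step (0 of 6; 0% of 769), the end step (0 of 6; 0% of 770) and the span (0 of 9; 0% of 1030). At an unadjusted p under 0.05 the members numbered 0, 0, 1, 1 and 0, against background shares of 17.1%, 10.1%, 15.7%, 15.2% and 10.2%. The genes at that level were Lsamp for the start step and Cadm2 for the end step. The genotypes were separated, with both KO libraries above or both below the WT pair, in 3 of 6 members for the mean along the gene (background 51.3%), 2 of 9 for the end-to-end change (43.3%), 2 of 6 for the start step (48.9%), 3 of 6 for the end step (48.3%) and 1 of 9, Cadm2, for the span (45.1%). With steps taken by coordinate for all 9 members, 4 were separated at the low edge (background 47.5%) and 3 at the high edge (49.7%). The counts are thus near or below those of all genes. Without KO replicate 2, Nrg3 passed for the mean, Csmd3 for the end-to-end change and 4 members for the span (Lsamp, Csmd3, Sdk1 and Nrg3). The same fits called 300 of 770, 247 of 1030 and 296 of 1030 genes. Without KO replicate 1, only Sdk1 passed, for a lower span in KO, with 17 of 1030 genes called.

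Single windows gave the same picture. Of 166 member windows that do not overlap, 0 passed in limma at an adjusted p under 0.05, with 13 of 23672 windows (0.0549%) called over the autosomes. At an unadjusted p under 0.05 there were 13 member windows (7.83%), against 12.2% of all windows. The genotypes were separated in 60 of 166 windows (36.1%; background 44.7%), 29 higher and 31 lower in KO. The share was highest in Nrg3, at 9 of 17, and Cdh13, at 9 of 18, and lowest in Lsamp, at 6 of 28. Without KO replicate 1, 7 of 166 member windows passed, with 1371 of 23672 called over the autosomes, and without KO replicate 2, 22 passed, with 4790 called over the autosomes. In those fits the remaining KO library stands alone and is assumed to vary like WT.

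**Figure D4:**
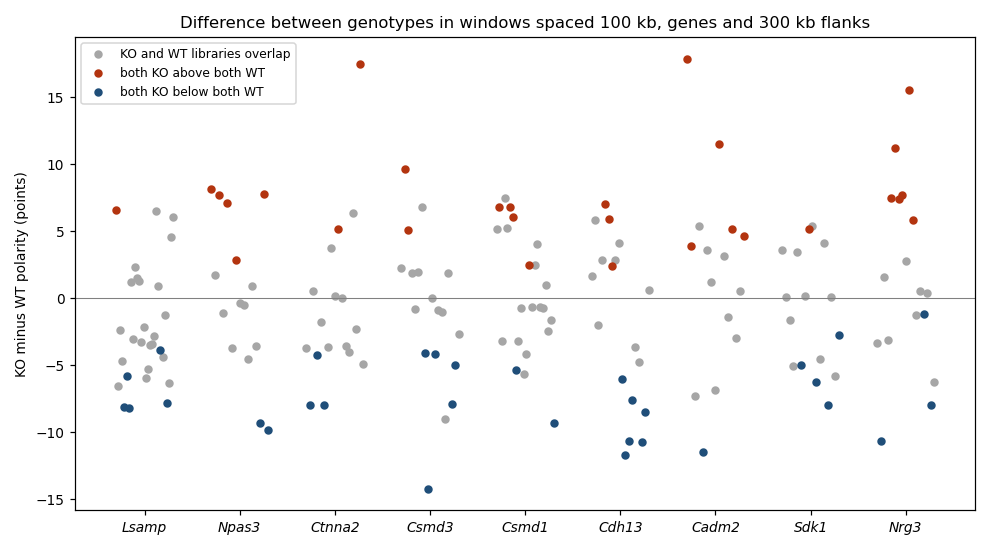
KO minus WT polarity (points, y axis) in each of 166 windows that do not overlap, by gene and its 300 kb flanks, in order of coordinate within each gene. Colours mark windows where both KO libraries lie above (29, red) or below (31, blue) both WT libraries, and the largest such differences are in the flanks of Cadm2 and Ctnna2 and in Nrg3.

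The largest separated window of each gene lay inside the gene for 5 members and in a flank for 4. The largest was downstream of Cadm2, at chr16:66400001-66500000, where polarity was -0.676 and 0 points in WT, against 15.4 and 19.6 points in KO. The difference of 17.9 points (SE 4.53) had a limma adjusted p of 0.140, and 6 of 6 neighbours that overlap it showed the same order of libraries. Upstream of Ctnna2, at chr6:78100001-78200000, polarity was -5.08 and -6.59 points in WT, against 5.45 and 17.7 points in KO, so that KO minus WT was 17.4 points (SE 4.89, limma adjusted p = 0.175) with 4 of 6 neighbours alike. Inside Nrg3, at chr14:39000001-39100000, polarity by coordinate was 0.350 and -3.56 points in WT, against 8.33 and 19.4 points in KO. KO minus WT of 15.5 points (SE 4.85, limma adjusted p = 0.219) was shared by 6 of 6 neighbours. In Csmd3, at chr15:48100001-48200000, the values were 8.79 and 16.3 points in WT, against -11.4 and 8.02 points in KO, and in Cdh13, at chr8:118800001-118900000, they were 8.95 and 10.5 points in WT, against -7.20 and 3.25 points in KO. These windows were separated in 3 and 6 of 6 neighbours. The largest separated windows of the other 4 genes differed by -9.83 points (Npas3), -9.34 points (Csmd1), -8.18 points (Lsamp) and -7.95 points (Sdk1), with limma adjusted p between 0.397 and 0.509. Of their 6 neighbours, 4, 3, 3 and 0 showed the same order of libraries. With limma's trend and robust options the windows of Cadm2 and Ctnna2 passed, as did 302 of 23672 windows. Both also passed when KO replicate 1 or KO replicate 2 was left out, the window of Nrg3 passed without KO replicate 1, and those of Csmd3, Cdh13, Npas3, Csmd1 and Sdk1 passed without KO replicate 2. No member window passed without WT replicate 1 or without WT replicate 2.

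Segments were also called in each library on its own. Rises with a midpoint in a member numbered 3 and 6 in WT, against 4 and 5 in KO, and there were 9 and 11 falls in each genotype (exact permutation p = 1 for each). The rises of Lsamp were called 2 times in every library. The other genes with a called rise held its midpoint in only some libraries. Ctnna2, Csmd3 and Csmd1 each had 1 in 1 WT and 1 KO library, and the remaining genes were Cdh13, with 1 in each WT library and 0 in each KO library, and Nrg3, with 0 in each WT library and 1 in each KO library. A count of 0 need not mean that no rise was there. The common rise of Nrg3, centred just past the gene end, measured 14.4 and 16.0 points in WT. That of Csmd1, centred 20.0 kb inside the edge, measured 19.9 to 25.7 points in the 4 libraries. The part of shifted midpoints in these counts was not tested. With 300 kb on each side included, there were 13 and 14 rises in WT, against 10 and 11 in KO (exact permutation p = 0.33), so that both KO libraries had fewer. Over the autosomes there were 1.09 and 1.12 rises per Mb in WT, against 1.03 and 1.10 in KO. With a minimum change of 15 points, falls in the members numbered 9 and 10 in WT, against 12 and 11 in KO (exact permutation p = 0.33).

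The mean height of the 3 common rises was 27.0 and 24.0 points in WT, against 32.2 and 28.1 points in KO, and KO minus WT was 4.64 points beside a pooled replicate SD of 2.55 points (exact permutation p = 0.33). In units of each library's SD the rises were 1.85 and 1.87 in WT, while KO had 1.66 and 1.93, and the difference turned to -0.0644 SD (exact permutation p = 1). Over 2461 autosomal rises the difference in height was 5.98 points. The 8 common falls averaged -29.6 and -26.5 points in WT, against -33.3 and -23.8 points in KO (exact permutation p = 1). In units of each library's SD, the falls in the members were -2.02 and -2.06 in WT and -1.71 and -1.64 in KO, so both KO libraries were shallower by 0.370 SD on average (pooled replicate SD 0.0429; exact permutation p = 0.33). Over all autosomal falls the same difference was 0.0472 SD.

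Other long neuronal genes were described in the same way from a hand-made list of 51 relatives of the members and other genes known from neurons, of which 43 had at least 8 windows. Their WT median end-to-end change was -12.7 points, and 31 of 43 fell in all 4 libraries. None passed in limma for any of the 5 measures. At an unadjusted p under 0.05 they numbered 3 of 43 for the end-to-end change, 5 of 43 for the span, and 1, 3 and 3 of the 31 with a strand for the mean, the start step and the end step.

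The genes whose WT profile most resembled the mean of the members were Grid1, which encodes a glutamate receptor of the delta family, Arhgap24, and Cdk14, a cyclin-dependent kinase. Pearson's r over 20 bins of the gene was 0.972, 0.968 and 0.960. Among the members themselves, which form part of that mean, r ran from 0.499 in Ctnna2 to 0.950 in Nrg3.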

How the data were processed

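TrAEL-seq polarity was compared in 2 WT and 2 Snf2h KO libraries of mouse embryonic stem cells. Per the submitters' processing notes and the file headers, the authors trimmed reads with Trim Galore 0.6.5, aligned them with Bowtie2 2.4.1 to GRCm38 with an rRNA sequence, and deduplicated each library. The deposited value is a score, a signed strand imbalance in points per 100 kb window, spaced 25 kb. Its formula, its positive strand and any read minimum are not given in the sources used here. Depth is unknown, so no counting interval was computed.

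Full-length autosomal windows with a value in all 4 libraries were used (94694, of which 23672 do not overlap). Windows, and 5 measures of 1030 protein-coding genes with at least 8 windows (RefSeq, GRCm38.p6), were fitted with limma 3.58.1 in R 4.3.3, with Benjamini-Hochberg adjustment over all features at 0.05. Single values were tested across libraries by exact permutation (two-sided), whose smallest p-value with 2 libraries a group is 0.33. Their p-values are unadjusted. Segment calls used running means over 5 windows and a minimum change of 1 SD. The scripts used Python 3.11.15 and were tested on simulated data. A strand was listed for 6 members only, so measures along the gene cover those 6.

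All 9 members are named, with the largest separated window of each, the common segments inside it (the 2 with the largest change where a member has more of a kind) and the 3 genes most like the members' mean profile. Segments beside the genes, and other genes overlapping segments, were named after their values were seen. The members, lists and tests were chosen with earlier results of these data known. Alternatives were a replicate block, standardising by library, atanh, trended robust limma variances, other thresholds, window sets, widths, running means and minimum changes, and omission of each library. The index in the label of WT replicate 2 differs from that in its column, which was matched by sample name. Coordinate edges for all genes were added after seeing the data.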

Additional observations from a re-analysis of the deposited data

How the results depend on the processing

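For the main value or count of each comparison, 105 recomputed values stayed, 12 moved and 2 reversed. For differences of single members, 151 stayed, 18 reversed and 2 newly passed. For member windows, 0 called became 3 with the replicate block (the named windows of Cadm2, Ctnna2 and Nrg3), 4 with the replicate block and standardising (that of Csmd3 too), and 2 with limma's trend and robust options; omission of a library gave 0 to 22. The first 3 of these fits called 630, 654 and 302 of 23672 windows. Over all windows the count of 13 ranged from 0 (atanh) to 654 (block and standardising) among fits of 4 libraries. Omission of a library gave 0 to 1 members called for mean polarity, 0 to 1 for the end-to-end change and 0 to 4 for the span, while up to 300 of 770, 247 of 1030 and 296 of 1030 genes were called. The replicate numbers were not taken as a pairing: deviations of same-numbered libraries correlated at 0.241, and at 0.0158 after standardising. Within same-numbered pairs, KO minus WT was 5.22 and 4.06 points for the height of rises and -3.70 and 2.72 points for the depth of falls.

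With all 4 libraries and the settings of the report, no gene-level difference was called. The background of 0 depended on the setting. For mean polarity, 21 of 770 genes were called after standardising, 58 with limma's trend and robust options and 112 with the replicate block. On the atanh scale the count was 0. For the start step, standardising called 89 of 769 genes. None of these calls was a member. The sign of the difference in end-to-end change depended on the setting in several genes. After standardising, with or without the block, the difference in end-to-end change became positive in Npas3 (0.149 SD), Csmd3 (0.0483 SD), Csmd1 (0.00374 SD) and Nrg3 (0.0723 SD). For Sdk1 it was -0.00191 on the atanh scale and -0.252 points with windows wholly inside the gene. When each library was omitted in turn, the sign changed in 7 genes, with ranges of -0.492 to 6.71 points in Lsamp, -9.52 to 0.866 in Npas3, -0.318 to 6.39 in Ctnna2, -18.3 to 7.47 in Csmd3, -9.62 to 0.646 in Csmd1, -9.82 to 10.7 in Sdk1 and -9.18 to 1.27 in Nrg3. Cdh13 (-12.9 to -9.85) and Cadm2 (4.89 to 6.92) kept theirs. Standardising reversed the height of rises to -0.0644 SD and the depth of falls to 0.370 SD, and a minimum change of 0.5 SD moved the height of rises to 1.51 points. With 300 kb flanks the difference in rises was -3, and with a minimum of 15 points that in falls was 2. In each case the cause was not tested. Depth limits cannot be stated, because the table has no counts.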
